A study of Mus musculus with 6 samples.

Results

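The genes followed here were grouped as feedback inhibitors of the kinase ERK. They comprise the MAP kinase phosphatase genes Dusp2, Dusp4, Dusp5, Dusp6, Dusp7 and Dusp10, of which Dusp10 prefers the related kinases JNK and p38. The Sprouty genes Spry1 and Spry2 and the Spred genes Spred1 and Spred2 complete the set. These genes are 10 of 19937 on the arrays. Each was read from the probe set with the highest mean over the 6 arrays among those annotated to it alone. The genes were chosen by name with their measured difference between the 2 groups of arrays already known, and are counted as selected on it, so their own values are given as a description, without a test.

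Transcript levels were measured on 6 one-colour arrays of double-negative (DN) thymocytes, the T-cell precursors that carry neither CD4 nor CD8. The RAG-/- group holds 3 arrays of DN thymocytes from Rag2-/- mice, which cannot assemble antigen receptor genes, and the labels call it control. The DNTLX3+ group, labelled tumoral, holds 3 arrays of sorted DN thymocytes of wild-type mice that received a pMSCV-GFP-TLX3 retrovirus, which carries the leukaemia homeobox gene TLX3. The latter cells were grown for 4 to 5 weeks on irradiated OP9-DL1 stromal cells, which present a Notch ligand, with interleukin 7 and Flt3 ligand in the medium. The protocol gives C57Bl/6 mice of 4 to 6 weeks of age for all samples. The labels do not make clear whether the RAG-/- cells were cultured, and no array of cells with the empty pMSCV-GFP vector was analysed here. Genotype, virus and possibly sorting and culture thus cannot be told apart. The same holds for cell make-up, since markers of other cells also differed between the groups, as given below. Nothing in the labels says that replicates were separate mice or cultures, so every error here is one between samples and may be technical.

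ERK is the last kinase of the cascade from RAS through RAF and MEK, which carries signals from the pre-T-cell receptor and from cytokine and growth factor receptors. Active ERK switches on genes that turn it off again. Dual-specificity phosphatases (Dusp) remove the activating phosphates from MAP kinases, while Sprouty and Spred proteins act further up, between the receptor and RAF. In thymocytes, ERK activity takes part in passage through the DN stage and in later selection.

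The stretches before the start of 4 of the genes are shown because these genes either were among those that differed most between the groups or hold a motif known for ERK-driven transcription. The sequences are RefSeq's, build GRCm38.p6, matched by symbol for 9 of the 10 genes (all but Dusp4), and run 5′ to 3′ along the gene's strand up to the last base before the annotated start. Capitals mark the ETS core, GGAA on either strand, and, in Dusp5, also the run of 20 bases made of a pair of CArG boxes, the motif bound by serum response factor (SRF).
Dusp5, chr19:53528895-53529144, plus strand: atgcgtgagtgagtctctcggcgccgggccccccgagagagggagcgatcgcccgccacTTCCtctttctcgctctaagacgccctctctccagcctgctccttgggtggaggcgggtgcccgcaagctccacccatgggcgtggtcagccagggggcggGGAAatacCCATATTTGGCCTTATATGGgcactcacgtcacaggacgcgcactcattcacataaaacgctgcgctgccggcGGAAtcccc
Dusp7, chr9:106368382-106368559, plus strand: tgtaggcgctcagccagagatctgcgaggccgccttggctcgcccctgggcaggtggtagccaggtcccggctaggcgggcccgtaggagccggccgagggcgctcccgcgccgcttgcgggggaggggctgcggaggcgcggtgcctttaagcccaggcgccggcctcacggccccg
Dusp10, chr1:184034131-184034380, plus strand: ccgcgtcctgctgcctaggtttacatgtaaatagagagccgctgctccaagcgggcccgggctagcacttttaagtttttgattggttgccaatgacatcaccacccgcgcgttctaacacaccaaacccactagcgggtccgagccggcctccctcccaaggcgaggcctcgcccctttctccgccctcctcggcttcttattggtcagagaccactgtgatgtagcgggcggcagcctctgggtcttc
Spry2, chr14:105896820-105897069, minus strand: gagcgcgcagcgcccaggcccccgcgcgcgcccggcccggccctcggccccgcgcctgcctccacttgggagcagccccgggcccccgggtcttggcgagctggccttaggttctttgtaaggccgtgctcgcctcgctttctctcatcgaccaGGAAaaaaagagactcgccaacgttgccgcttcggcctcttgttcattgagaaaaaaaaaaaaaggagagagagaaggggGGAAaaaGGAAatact

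Dusp5 held CArG boxes at bases -82 to -73 and -72 to -63 from the start. Of all 32851 promoter windows of the same 250 bases, 1.47% held that motif, and Dusp5 was the only one of the 9 feedback genes with it. The ETS core GGAA was in 93.4% of all windows and in 7 of the 9 feedback genes. The windows of Dusp7 and Dusp10 had 0 matches, against 7 in Spred2, 6 in Dusp6 and 3 in Spry2. For Dusp7 the sequence above stops after 178 bases, where another annotated start lies, while the search covered 250 bases. The other letters searched on both strands were the long ETS form CCGGAAGT, the CRE TGACGTCA, the AP-1 site TGANTCA, the RUNX site TGTGGTT, the EGR site GCGTGGGCG and the homeobox core TAATTA, held by 2.88%, 1.55%, 6.75%, 4.4%, 0.536% and 4.84% of all windows in that order. The 9 windows had 0 matches to any of them. The long ETS form contains the ETS core. The GC content of the 9 windows was 56% to 77.2%, with a median of 52.4% over all windows. These matches describe letters in a window and not sites in use.

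**Figure D1:**
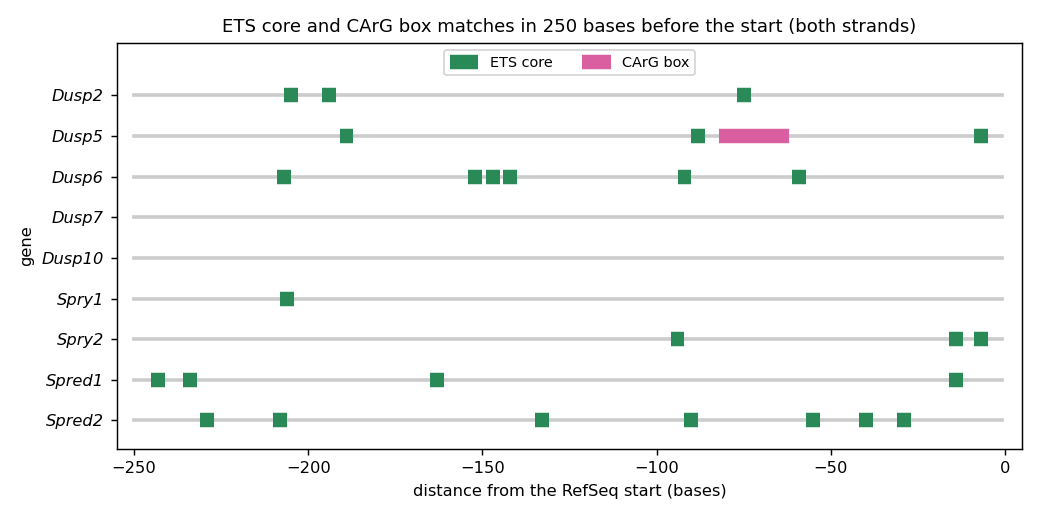
Matches to the ETS core and to the CArG box in the 250 bases before the RefSeq start of 9 feedback genes, 1 line per gene, with the distance from the start in bases on the x axis. The paired CArG boxes stand in Dusp5 only, and Dusp7 and Dusp10 have no match.

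The 10 genes did not move as a block. Dusp4, Dusp7 and Dusp10 were higher in the DNTLX3+ arrays, Spry2 was lower, and the other 6 lay within 0.5 log2 units of the RAG-/- mean. Values are log2 expression values as deposited, differences are DNTLX3+ minus RAG-/-, and each ± on a group mean is an SD over 3 arrays. The median difference of the 10 was 0.13, beside 0.11 over all 19937 genes. It was 0.32 beside 0.04 with the values quantile normalized again, and 0.27 beside 0.00 under cyclic loess. The groups did not overlap for 7 of the 10, 5 higher and 2 lower, where 58.3% of all genes had no overlap, 32.3% as higher and 26% as lower.

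**Figure D2:**
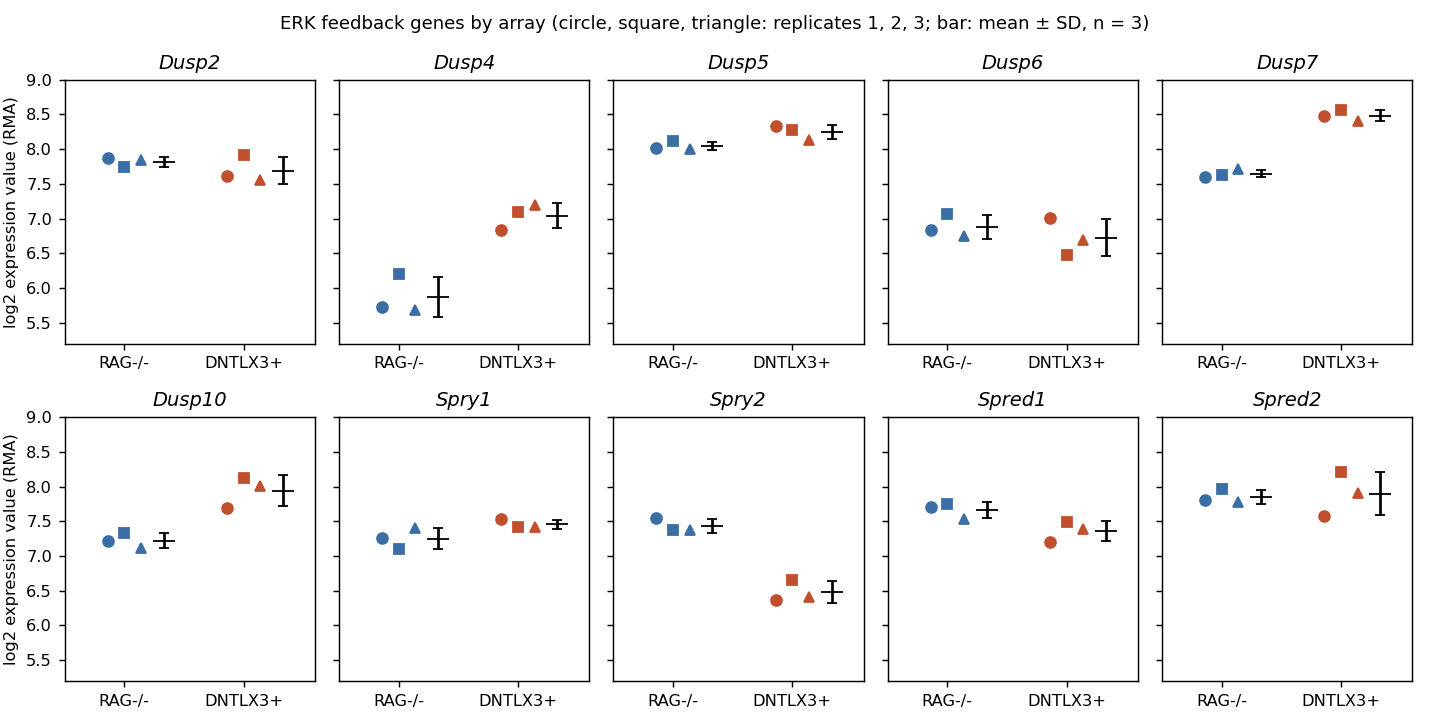
Log2 expression value (y axis) of each of the 10 feedback genes on the 3 RAG-/- (blue) and 3 DNTLX3+ (orange) arrays, with circle, square and triangle for replicates 1, 2 and 3 and a bar for the mean ± SD. The groups stand clearly apart for Dusp4, Dusp7, Dusp10 and Spry2, and they overlap for Dusp2, Dusp6 and Spred2.

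Among the phosphatases of the nucleus, Dusp4, which acts on ERK and also on JNK and p38, had the largest difference of the 10. It was at 5.72, 6.20 and 5.68 in RAG-/- replicates 1, 2 and 3, and at 6.84, 7.09 and 7.19 in the DNTLX3+ replicates. Every DNTLX3+ array was thus above every RAG-/- array, with a gap of 0.64 between the groups, and replicate 2 stood above the other RAG-/- arrays. The difference was 1.17 ± 0.17 (SE), higher than that of 99.5% of all genes. The RAG-/- mean of 5.87 lay under the array medians (6.22 to 6.35), where values may be background, so no fold is given. Dusp4 was the only one of the 10 past the limits used for all genes, a limma adjusted p under 0.05 with a difference of at least 1, which 6.51% of genes passed, 1.44% as higher and 5.07% as lower. At the adjusted p alone, which 42.4% of genes passed, 4 of the 10 were inside: Dusp4, Dusp7, Dusp10 and Spry2. Nothing is read from either count, since the genes were selected on this difference.

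Dusp2 and Dusp5, the other nuclear phosphatases of the set, differed little. Dusp2, known as an activation gene of lymphocytes, was at 7.87, 7.74 and 7.85 in the RAG-/- arrays and 7.61, 7.91 and 7.55 in the DNTLX3+ arrays. DNTLX3+ replicate 2 was the highest of all 6 arrays and the other two the lowest, so the groups overlapped, with a difference of -0.13 ± 0.14 (SE). Its sign turned under other scalings, to 0.078 when the values were quantile normalized again and 0.035 under cyclic loess. Dusp5, an ERK-specific phosphatase whose promoter carries the paired CArG boxes shown above, was at 8.02, 8.11 and 8.002 against 8.33, 8.28 and 8.13. The groups were parted by a gap of 0.02 only, and the difference was 0.20 ± 0.12 (SE). It was 0.41 and 0.38 after the same rescalings.

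Of the ERK-selective phosphatases of the cytoplasm, Dusp7 was higher in the DNTLX3+ arrays and Dusp6 was not. Dusp7 was at 7.60, 7.63 and 7.71 in the RAG-/- arrays and at 8.47, 8.56 and 8.40 in the DNTLX3+ arrays. These were tight groups, with SDs of 0.06 and 0.08 and a gap of 0.69 between them. The difference was 0.83 ± 0.12 (SE), or 1.78-fold. Dusp6, among the best known transcriptional readouts of ERK activity, was at 6.83, 7.07 and 6.74 against 7.01, 6.47 and 6.70. The DNTLX3+ arrays straddled the RAG-/- ones, with a difference of -0.16 ± 0.17 (SE). Dusp7 passed a difference of 1 with the values quantile normalized again (1.03) or under cyclic loess (1.01), while Dusp6 stood at -0.06 and -0.14.

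Dusp10, which prefers JNK and p38 over ERK, was at 7.21, 7.33 and 7.12 in the RAG-/- arrays and at 7.69, 8.12 and 8.01 in the DNTLX3+ arrays. Replicate 1 was the lowest of the DNTLX3+ arrays and still 0.36 above the highest RAG-/- array. The difference was 0.72 ± 0.15 (SE), or 1.65-fold. Without DNTLX3+ replicate 1 it was 0.84.

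The Sprouty genes, whose proteins restrain RAS activation downstream of receptor tyrosine kinases, gave unlike values. Spry2 was at 7.54, 7.37 and 7.37 in the RAG-/- arrays and at 6.37, 6.65 and 6.41 in the DNTLX3+ arrays. All DNTLX3+ arrays lay at least 0.72 below all RAG-/- arrays. The difference was -0.95 ± 0.13 (SE), or 1.93-fold lower, which does not reach a difference of 1, and 5.67% of genes had a lower one. Spry1 was at 7.25, 7.10 and 7.40 against 7.53, 7.42 and 7.42. Its groups were parted by 0.02, and the difference was 0.21 ± 0.13 (SE), or 0.38 with the values quantile normalized again and 0.32 under cyclic loess.

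The Spred genes, whose proteins bring the RAS inhibitor neurofibromin to the membrane, showed small differences. Spred1 was at 7.70, 7.75 and 7.53 in the RAG-/- arrays and 7.20, 7.49 and 7.38 in the DNTLX3+ arrays, a difference of -0.31 ± 0.13 (SE). The groups were 0.05 apart, and after quantile normalization again the difference was -0.11. Spred2 was the one gene of the 10 with more than 1 probe set. On the brighter one it was at 7.80, 7.96 and 7.77 against 7.58, 8.21 and 7.91, a difference of 0.05 ± 0.17 (SE). On the other it was at 7.79, 7.64 and 7.48 against 7.67, 8.29 and 8.12, a difference of 0.39 ± 0.18 (SE). Both probe sets overlapped between the groups, and both were lowest in replicate 1 among the DNTLX3+ arrays. The range of Spred2 over those arrays, 0.63 on the brighter probe set, was the widest of the 10 genes, and that of Spry1, 0.11, the narrowest.

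**Figure D3:**
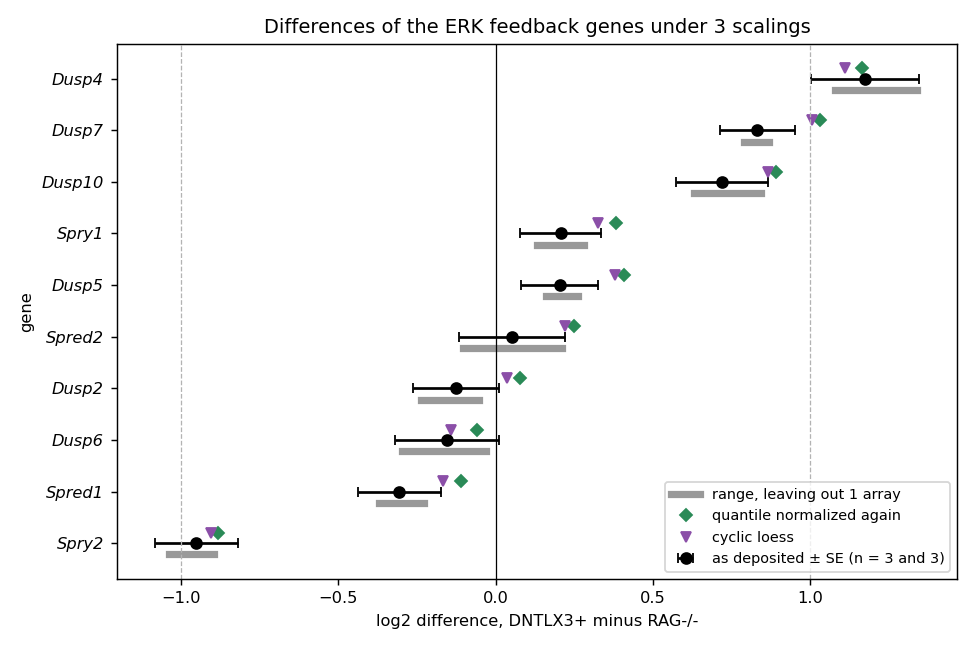
Log2 difference (x axis, DNTLX3+ minus RAG-/-) of the 10 feedback genes, as deposited with SE (black), after quantile normalization again (green), after cyclic loess (purple), and the range when 1 array is left out (grey). Dusp4, Dusp7 and Dusp10 stay above 0.6 and Spry2 below -0.8 in all of these, while Dusp2 changes sign with the scaling and Spred2 with the array left out.

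The relatives of these genes that were not in the set were tested in the fit over all genes. Of 21 other Dusp, Sprouty and Spred genes, 1 rose and 20 were not called. The one was Dusp18, a phosphatase outside the MAP kinase phosphatase group, at 4.97, 4.60 and 4.53 against 6.35, 5.62 and 5.24 (difference 1.04 ± 0.26 SE, limma adjusted p = 0.0121). Both means lay under the array medians. The call was lost without RAG-/- replicate 2 (0.99), RAG-/- replicate 3 (0.95) or DNTLX3+ replicate 1 (0.73). It was also lost when the values were quantile normalized again (0.86), with equal array medians (0.98), under cyclic loess (0.77), with array weights (0.75) and with dim probe sets left out, so that 8 of 14 alternatives did not call it. At the limma adjusted p alone, 8 of the 21 were higher and 2 lower, where 23% and 19.4% of all genes were. The median difference of the 21 was 0.28. With dim probe sets left out, the median of those that remained was -0.10, with 3 higher and 3 lower at the adjusted p, and the median of all genes that remained was -0.14.

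With these relatives added, the nuclear, cytoplasmic and JNK and p38 phosphatases, the Sproutys and the Spreds each held both higher and lower means. In the nuclear class the 1 lower mean was that of Dusp2, whose sign turned with the scaling. In the cytoplasmic class the 1 lower mean was that of Dusp6, at -0.16 ± 0.17 (SE) with overlapping groups. Of the JNK and p38 phosphatases, Dusp16 was lower (6.97 ± 0.09 against 6.17 ± 0.27, difference -0.80 ± 0.16 SE, limma adjusted p = 0.00421) and Dusp8 higher (0.59 ± 0.14 SE, limma adjusted p = 0.00988), both short of the minimum difference, while a dimmer probe set of Dusp8 gave 0.18. The RAG-/- mean of Dusp8, 5.90, lay under the array medians. Dusp1, the nuclear phosphatase induced by stress and by ERK, differed by 0.06 ± 0.19 (SE). Dusp9, the third ERK-selective phosphatase of the cytoplasm, was higher by 0.37. Among the Sproutys, Spry3 differed by 0.53 between means under the array medians, and Spry4 by 0.22 ± 0.18 (SE). Spred3 was higher by 0.46 ± 0.13 (SE, limma adjusted p = 0.0213), again short of the minimum difference.

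Transcripts that respond to ERK, or that code for transcription factors linked to it, were followed as a list of 28 genes, here called ERK-responsive. Of these, 5 rose, 0 fell and 23 were not called, where 1.44% of all genes rose, and the median difference was 0.53. Nr4a1, a nuclear receptor induced by antigen receptor signals, was at 6.11, 6.24 and 6.09 against 7.77, 8.15 and 7.92 (difference 1.80 ± 0.14 SE, limma adjusted p = 7.45e-05). Egr1, an early transcription factor target of ERK and SRF, was at 6.09, 5.91 and 5.80 against 7.09, 7.42 and 7.62 (1.44 ± 0.16 SE). Id3, an inhibitor of E proteins, differed by 1.45 ± 0.20 (SE), Phlda1 by 1.19 ± 0.13 (SE) and Etv5, an ETS factor, by 1.14 ± 0.19 (SE), or 0.91 and not called without DNTLX3+ replicate 2. All 5 rose from RAG-/- means under the array medians, and Phlda1 dropped out when dim probe sets were left out. Several were known from earlier results of these data, so this count is no independent evidence of a direction.

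Other genes of that list passed the adjusted p only, so that 15 of the 28 were higher and 4 lower at it. Of all genes, 23% were higher and 19.4% lower at that limit. The filter on dim probe sets left 17 of the 28, with 8 higher and 4 lower. Their median difference was 0.42, beside -0.14 over all genes that remained. Etv4, an ETS factor like Etv5, was higher by 0.69 ± 0.15 (SE, limma adjusted p = 0.00592), and Srf, which codes for the factor that binds CArG boxes, was at 8.12 ± 0.16 against 8.83 ± 0.21 (difference 0.71, limma adjusted p = 0.00588). The RAG-/- mean of Etv4, 5.58, lay under the array medians. Srf was chosen after its values were seen.

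The cascade that leads to ERK showed no call among its 33 measured genes by limma, with 17 at an unadjusted p under 0.05. At the adjusted p alone 1 was higher and 14 lower, where 23% and 19.4% of all genes were, and the median difference was -0.25. After quantile normalization again the counts were 4 and 8, and after cyclic loess 3 and 9. The filter on dim probe sets left 29 of the 33, with 1 higher and 12 lower at the adjusted p. Their median was -0.25, beside -0.14 over all genes that remained. Braf, a RAF kinase, was at 8.64, 8.45 and 8.55 against 7.32, 7.77 and 7.73 (difference -0.94 ± 0.15 SE, limma adjusted p = 0.00183). Araf stood at -0.96 and the RAS inhibitor Nf1 at -0.84, and these 2 were chosen after their values were seen. Braf, Araf and Nf1 passed the minimum difference in some of the fits with 1 array left out: Braf without DNTLX3+ replicate 2 (-1.02) or 3 (-1.0005), Araf without DNTLX3+ replicate 2 (-1.06), and Nf1 without DNTLX3+ replicate 3 (-1.02). The MEK genes Map2k1 (-0.25 ± 0.13 SE) and Map2k2 (0.20 ± 0.12 SE) did not pass the adjusted p. Pebp1, of the same list, differed by 0.30 ± 0.13 (SE) on its brightest probe set, the one counted. On its dimmer probe sets it differed by 1.23 ± 0.12 (SE) and 1.13 ± 0.14 (SE), past the minimum difference. Pebp1 was chosen after its values were seen. With probe sets averaged per gene, 0 of the 33 genes were called.

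**Figure D4:**
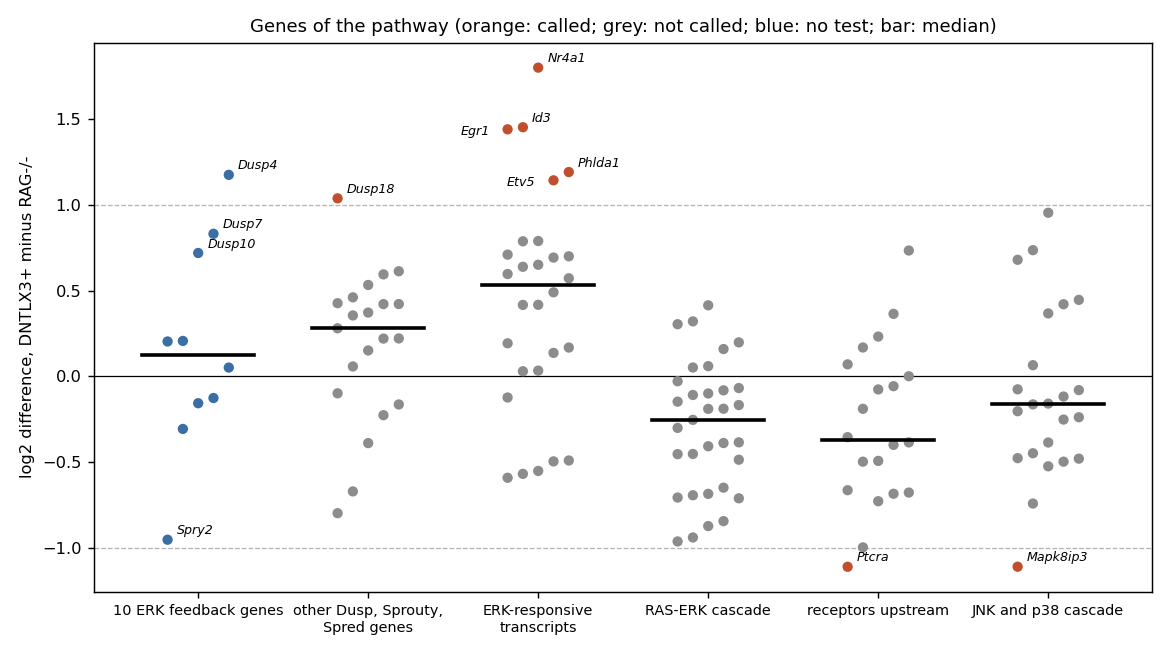
Log2 difference (y axis, DNTLX3+ minus RAG-/-) of each measured gene in 6 lists, with a bar at the median; orange genes were called, grey ones were not, and the 10 feedback genes (blue) carry no test. The ERK-responsive list holds 5 of the called genes and has its median at 0.53, while the RAS-ERK cascade has none and its median at -0.25.

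Of 20 genes for receptors upstream of ERK and their first signalling partners, 1 fell and 19 were not called, where 5.07% of all genes fell, with a median of -0.37. At the limma adjusted p alone, 1 of the 20 was higher and 9 lower, where 23% and 19.4% of all genes were. The filter on dim probe sets left 16 of the 20, with 1 higher and 8 lower. Their median was -0.37, beside -0.14 over all genes that remained. Ptcra, the pre-T-cell receptor alpha chain, fell by 1.11 on the log2 scale (SE 0.13, limma adjusted p = 0.000471), or 0.97 and not called after cyclic loess. Il7r, the interleukin 7 receptor, stood at -0.996, and it was called without RAG-/- replicate 1 (-1.01) or 3 (-1.002) and without DNTLX3+ replicate 2 (-1.08) or 3 (-1.12). Of 23 JNK and p38 cascade genes, 1 fell and 22 were not called, again near the 5.07% of all genes that fell. At the limma adjusted p alone, 5 of the 23 were higher and 7 lower. The median of the 23 was -0.16, or -0.03 with the values quantile normalized again and -0.06 under cyclic loess. Mapk8ip3, a JNK scaffold, fell by 1.11 (SE 0.14, limma adjusted p = 0.00066). Under a second quantile normalization (-0.91) or cyclic loess (-0.93) it was not called. Jund, a target of JNK, stood at 0.95 (limma adjusted p = 0.00142) and was called instead in those settings, at 1.12 in each, and beside Mapk8ip3 without RAG-/- replicate 2 (1.02) or DNTLX3+ replicate 3 (1.06).

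The 3 genes whose values over the 6 arrays ran most like those of Dusp4 were Evx1, Rpl26 and Sct (Pearson r of 0.9995, 0.9976 and 0.9971), and for Spry2 they were Ifi207, Bbs12 and Brca2 (r of 0.9996, 0.9995 and 0.9992). These 6 arrays fall into 2 groups, so such values mainly reflect a difference between the groups and are given as a description.

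Of 14 DN thymocyte markers, all 14 had a RAG-/- mean above that group's median probe set and 13 had a DNTLX3+ mean above theirs, a bar that many markers of other cells also passed. Of the 14, 3 fell (Ptcra, Il2ra by 1.19 and Dtx1 by 1.23) and none rose, and at the limma adjusted p alone 1 was higher and 11 lower, with a median difference of -0.62. Markers of other cells differed between the groups beside the values above. Of 17 myeloid and dendritic markers, 16 fell, and the log2 of their summed level was 12.97 to 13.22 in the RAG-/- arrays and 9.80 to 9.89 in the DNTLX3+ arrays. Of 11 thymic epithelial markers 6 fell (12.61 to 13.48 against 10.24 to 10.48), of 12 NK markers 8 fell (11.68 to 11.94 against 10.58 to 10.98), and of 11 fibroblast markers 2 fell (10.38 to 10.60 against 9.99 to 10.19). Of the remaining lists, 0 of 7 B-lineage markers were called by limma (4 at an unadjusted p under 0.05), 1 of 4 gamma-delta markers rose, and of 5 double-positive markers 1 rose and 2 fell. No marker value is a true zero on this scale. The part of these cells in the lower Spry2 or in any other difference was not tested, and in bulk samples fewer cells of a type and less RNA per cell cannot be told apart.

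Tlx3 was at 5.40, 5.42 and 5.52 in the RAG-/- arrays and 7.09, 6.52 and 6.45 in the DNTLX3+ arrays. Rag2 was at 8.11, 8.01 and 7.95 against 7.44, 7.84 and 7.87, and whether its probes lie in the deleted part is unknown here, so this value checks no label. The interquartile range of the values was narrower on the DNTLX3+ arrays, at 2.47, 2.85 and 2.75, than on the RAG-/- arrays, at 3.09 to 3.18. DNTLX3+ replicate 1, with the narrowest range, was the lowest array of its group for 5 of the 10 feedback genes and the highest for 3. Precision is limited by the number of arrays, with a median SD per gene of 0.10 among RAG-/- arrays and 0.20 among DNTLX3+ arrays.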

How the data were processed

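Biotin-labelled total RNA was hybridised to 1 array per sample, and groups and replicate numbers come from the sample titles. Per the submitters' processing notes, the authors ran RMA (background correction, quantile normalization, summary of probes) with affy in R 2.9.0, which gives the deposited log2 expression per probe set. Since quantile normalization equalises probe signals, it can shift bright and dim genes when samples differ widely. No genome build is named in the labels.

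Of 34760 probe sets, 6568 numbered before the genome-ordered ones and with no gene listed were left out and 28192 tested. In these, 21640 have 1 gene symbol, 1321 several and 5231 none in the platform annotation, and no gene was named from several. The fit used limma 3.58.1 (lmFit, eBayes, two-sided) in R 4.3.3 with Benjamini-Hochberg adjustment over all 28192, and was tested on simulated data. Calls needed an adjusted p under 0.05 together with a log2 difference of 1 or more in either direction. SEs are those of the fit. "Rose" and "fell" are used of called genes. Plots were drawn with matplotlib 3.10.9.

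The members, gene lists and markers were chosen with earlier results of these data known. Named genes are the 10 members, up to 5 called genes per list and direction, the Dusp, Sprouty and Spred genes, and a few fixed genes. Some others were chosen after their values were seen. For the members with the highest and the lowest difference, the 3 genes with the highest Pearson correlation are named. Alternatives were quantile normalization again, equal array medians, cyclic loess, array weights, a filter on dim probe sets, trend with robust estimation, a replicate block, averaged probe sets per gene, calls without a minimum difference, and leaving out each array.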

Additional observations from a re-analysis of the deposited data

How the results depend on the processing

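Dusp4, Dusp7, Dusp10 and Spry2 kept their direction under all alternatives run. After quantile normalization again, the difference was 0.078 for Dusp2, 0.41 for Dusp5, 1.03 for Dusp7, -0.11 for Spred1 and 0.38 for Spry1. After cyclic loess, which moved the median of all genes from 0.11 to 0.00, it was 0.035, 0.38, 1.01, -0.17 and 0.32 in that order. These 10 values moved by more than 1 SD of the arrays, and the cause was not tested. Spred2 stood at -0.01 after equal array medians.

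Leaving out 1 array gave differences of 1.08 to 1.34 for Dusp4, 0.79 to 0.87 for Dusp7, 0.63 to 0.84 for Dusp10, 0.16 to 0.26 for Dusp5, -0.24 to -0.05 for Dusp2, -0.30 to -0.03 for Dusp6, -1.04 to -0.89 for Spry2, 0.13 to 0.28 for Spry1, -0.37 to -0.23 for Spred1 and -0.10 to 0.21 for Spred2. In those fits 1036 to 1588 genes were called, against 1298 with all arrays. The counts were 4 to 5 for ERK-responsive transcripts, 0 to 1 for other Dusp, Sprouty and Spred genes, 0 to 2 for the RAS-ERK cascade, 1 to 2 for upstream receptors and 1 to 2 for the JNK and p38 cascade.

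With no minimum difference, 8453 genes were called, or 42.4% of all genes. Among them were 19 of 28 ERK-responsive transcripts and 10 of 21 other Dusp, Sprouty and Spred genes. The other lists had 15 of 33 RAS-ERK, 10 of 20 receptor and 12 of 23 JNK and p38 genes called. The other Dusp, Sprouty and Spred list had 0 calls (limma) after quantile normalization again, equal array medians, cyclic loess, array weights or the filter on dim probe sets, against 12 of 21 at an unadjusted p under 0.05 as deposited. With equal array medians 1 RAS-ERK gene (Araf) and 2 receptor genes (Il7r and Ptcra) were called, and after cyclic loess 0 receptor genes, against 11 of 20 at an unadjusted p under 0.05 as deposited.

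The replicate numbers are shared between groups, but same-numbered arrays did not deviate together (correlations of -0.11, 0.06 and -0.00 over probe sets), nor did every array correlate best with its own number. With the replicate number as a block, 1302 genes were called. Values near or under the array medians may be background, which limits Dusp4 in the RAG-/- arrays.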
